A study of Caenorhabditis elegans with 8 samples.

Results

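The vacuolar proton pump (V-ATPase) subunit genes of Caenorhabditis elegans were followed in dauer larvae and in worms 12 h into dauer exit. The set was a list of 10 gene symbols, vha-1, vha-2, vha-4, vha-5, vha-6, vha-8, vha-12, vha-13, vha-15 and unc-32, and it was drawn up because most genes of this family lay below mix-stage worms in dauers. Of these, 9 were measured, by 33 probes, among 15078 named genes in all. No probe kept here carried vha-2 as its only symbol, so that gene is not analysed here. The genes were chosen by their ratio of dauer to mix-stage RNA. For these genes it is therefore given as a description with no test, and the dauer minus dauer exit difference, which uses the same dauer arrays, is treated alike. The ratio of dauer exit to mix-stage RNA, which did not choose the genes, was tested. Its means come from the exit arrays alone, but it shares the mix-stage pool with the dauer ratio, and the fit estimates its spread from all 8 arrays, dauers included.

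All worms were of the wild-type strain N2 Bristol, with no transgene or mutation. Dauer exit worms (n = 4) were purified dauers put on NGM plates with OP50 bacteria for 12 h. Dauers (n = 4) came from liquid cultures in S-medium harvested on day 12, and mix-stage worms were grown on NGM plates for 5 days and their RNA served as the common reference. The replicates were labelled as biological replicates. The dauer larva is the arrested, non-feeding alternative larval stage. Each of the 8 two-colour arrays held 1 sample and the pool, and in each stage the own RNA was labelled with Cy5 on 2 arrays and with Cy3 on the other 2. A value is the log2 ratio of own over mix-stage RNA, so 0 is the level of the reference pool and a negative value lies below it. The same mass of total RNA went into each labelling, so a ratio is not a value per worm. The arrays were then lowess normalised with weights for spike-in controls. The authors reported that mRNA made up a smaller share of total RNA in dauers than in mix-stage worms. How far that drop remains in the ratios was not tested. In whole worms fewer cells of a type and less RNA per cell cannot be told apart.

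The V-ATPase is a rotary pump. Its cytosolic V1 sector hydrolyses ATP and turns a ring in the membrane sector V0, which carries protons across the membrane. The pump acidifies lysosomes, endosomes and synaptic vesicles, and in this nematode it also works at the surface of the intestine, the excretory canal and the epidermis. The a subunit of V0 comes from several genes whose proteins go to different membranes. VHA-6 is known from the apical intestine, VHA-5 from the excretory canal and epidermis, and UNC-32 is expressed widely, neurons included.

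Genes that mark the stages were read first. The small heat shock gene hsp-12.6 lay at -0.50 in dauer exit (SE 0.44) and at 4.80 in dauers (SE 0.44), and the metallothionein gene mtl-1 at -3.27 in dauer exit (SE 0.39) and 1.36 in dauers (SE 0.39). Of the other dauer genes listed, col-183 was 0.65 in dauer exit (SE 0.30) and 1.43 in dauers (SE 0.30), a difference that was not called, and the superoxide dismutase gene sod-3 was -1.29 in dauer exit (SE 0.24) and -0.067 in dauers (SE 0.24), not above the pool. The yolk genes vit-1 to vit-6, made by adult hermaphrodites, were called lower than the pool in both stages (6 of 6 each). Pairs of arrays had correlations across genes of 0.46 to 0.75 in dauer exit and of 0.47 to 0.79 in dauers. The intensities behind the ratios were not used here, so a gene near background cannot be told from one that did not change. Precision is limited by how few arrays there were.

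Averaged over all arrays, the pump genes were closer to the mix-stage level at 12 h of exit than in dauers. This held on the Cy5-labelled arrays, where the median of dauer minus dauer exit was -1.68, and turned on the Cy3-labelled ones, where it was 0.29. The mean of the 9 ratios was -0.081, -0.99, -0.61 and -0.24 on dauer exit replicates 1 to 4, against -1.50, -1.99, -0.49 and -0.82 on dauer replicates 1 to 4. The stages overlapped, with exit replicates 2 and 3 below dauer replicate 3 and exit replicate 2 also below dauer replicate 4. The median of the 9 fold changes against mix-stage was -0.28 in dauer exit and -1.31 in dauers, beside medians of -0.078 and -0.047 over all genes. Below the pool lay 8 of 9 genes in dauer exit and 8 of 9 in dauers. On all 4 arrays of a stage 4 of 9 were below it in dauer exit (24.2% of all genes) and 7 of 9 in dauers (21.6% of all genes).

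In dauer exit 1 of the 9 genes was called lower than mix-stage at an adjusted p of 0.05 (limma, Benjamini-Hochberg over all genes) and 0 were called higher. Of all genes 9.07% were called lower and 0.458% higher in this comparison, so the share among the pump genes was near the background. At an unadjusted p under 0.05 there were 3 lower, beside 18.3% of all genes. In dauers 7 of the 9 lay past the same threshold on the lower side and 0 on the higher, where 13.6% of all genes were lower and 4.92% higher. That count restates how the set was chosen.

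**Figure D1:**
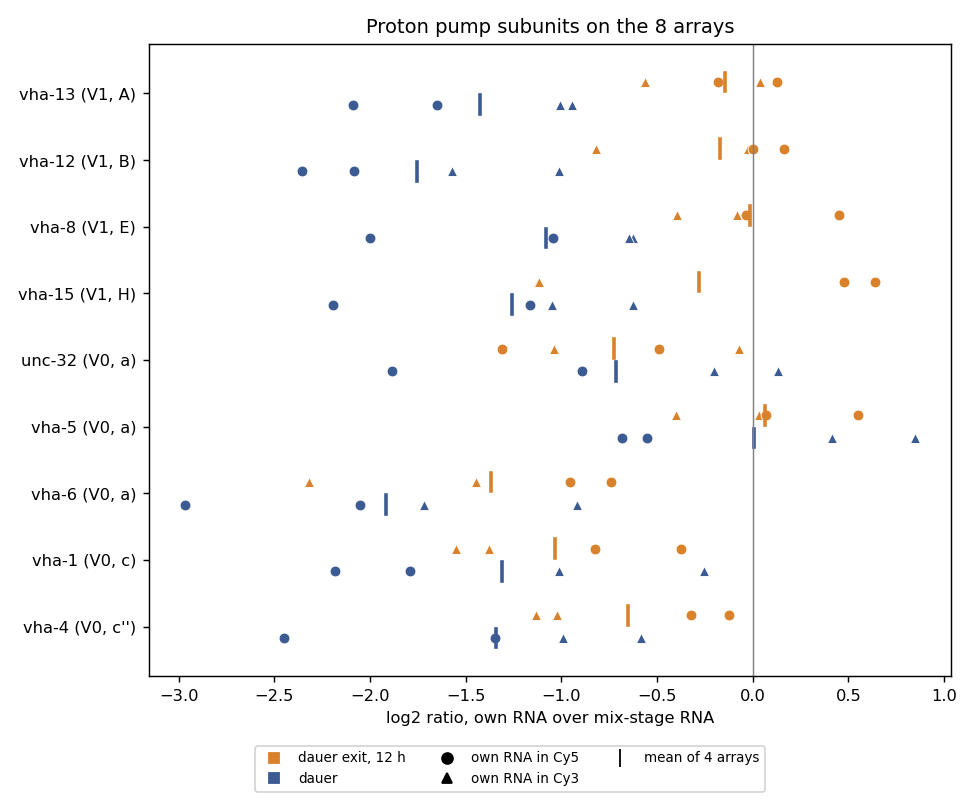
Log2 ratio of own over mix-stage RNA (x axis) for each of the 9 measured pump genes on the 4 dauer exit arrays (orange, upper row of each gene) and the 4 dauer arrays (blue, lower row). Circles are arrays with the own RNA in Cy5, triangles with the own RNA in Cy3, and bars are means of 4 arrays. For vha-13, vha-12 and vha-8 the 2 stages do not overlap. vha-5 averages about 0 in both, with its dauer arrays below 0 in Cy5 and above 0 in Cy3.

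Of the V1 members, vha-12, vha-13 and vha-8 had exit means near the mix-stage level and dauer means below it, with no overlap of the stages, and vha-15 split by dye in dauer exit. vha-12 encodes the B subunit, which with A forms the ATP-hydrolysing head. It measured 0.17, -0.82, -0.026 and 0.0013 on the dauer exit arrays and -2.09, -2.36, -1.01 and -1.57 on the dauer arrays. Every dauer array lay below every exit array. Against mix-stage the exit ratio averaged -0.17 (SE 0.24, adjusted p = 0.824, 95% interval -0.71 to 0.38) and the dauer ratio -1.76 (SE 0.24). The difference, given throughout as dauer minus dauer exit so that a negative value means more RNA in dauer exit, was -1.59 (SE 0.34), which is 3.00-fold.

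vha-13, the gene of the catalytic A subunit, followed vha-12 closely over the 8 arrays (Pearson's r = 0.98, the highest of the 36 pairs of members). Its ratios were 0.13, -0.56, 0.038 and -0.18 in dauer exit and -1.65, -2.09, -0.94 and -1.005 in dauers. Here too the stages did not overlap. The exit mean was -0.14 (SE 0.21, adjusted p = 0.835), the dauer mean was -1.42 (SE 0.21), and dauer minus dauer exit was -1.28 (SE 0.30).

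vha-8 encodes the E subunit of the peripheral stalk that holds the head still. It lay at -0.035, -0.40, -0.081 and 0.45 in dauer exit, around the level of the pool, and at -1.04, -2.002, -0.63 and -0.65 in dauers. Its 3 probes differed in level in dauer exit, averaging -0.61, 0.10 and 0.46. The exit mean of -0.015 (SE 0.24, adjusted p = 0.991) had a 95% interval of -0.56 to 0.53. Dauer minus dauer exit was -1.06 (SE 0.34), again with no overlap of the arrays.

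vha-15 encodes an H subunit, which links the sectors and in yeast keeps a detached V1 from hydrolysing ATP. Its exit arrays split by dye. Replicates 1 and 4, with the own RNA in Cy5, gave 0.64 and 0.48, and replicates 2 and 3, in Cy3, gave -1.12 each. The dauer arrays read -1.16, -2.19, -1.05 and -0.63. The exit mean was -0.28 (SE 0.35, adjusted p = 0.789), the dauer mean -1.26 (SE 0.35), and the stages overlapped.

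The a-subunit genes of V0 did not move as a group. vha-6, the intestinal isoform, was the 1 pump gene called in dauer exit. It measured -0.74, -2.32, -1.45 and -0.96 in dauer exit and -2.97, -2.05, -0.92 and -1.72 in dauers. All 8 arrays lay below the pool and the stages overlapped. In dauer exit it was 2.58-fold lower than mix-stage (log2 -1.36, SE 0.33, adjusted p = 0.0325 by limma), and in dauers 3.77-fold lower (-1.91, SE 0.33). On the 2 Cy5-labelled exit arrays alone the ratio was -0.85 and not called (adjusted p = 0.194 by limma). Over 18 alternative settings the adjusted p by limma ran from 0.00693 to 0.194, and 11 kept the call. The exit call ended without exit replicate 2 (-1.05, adjusted p = 0.164 by limma), without exit replicate 3 (-1.34, adjusted p = 0.105) or without exit replicate 4 (-1.50, adjusted p = 0.0734). It also ended without dauer replicate 4, which enters only through the shared spread (adjusted p = 0.0544 by limma).

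vha-5 was the 1 member with a mean at the mix-stage level in both stages. Its values were 0.55, 0.032, -0.40 and 0.069 in dauer exit and -0.55, -0.68, 0.85 and 0.41 in dauers. The exit mean was 0.063 (SE 0.27, adjusted p = 0.958, 95% interval -0.54 to 0.66), and the dauer mean was 0.0063 (SE 0.27). That dauer mean joins arrays split by dye, which averaged -0.62 in Cy5 and 0.63 in Cy3. The ratio of vha-6 was below that of vha-5 on every array, by -1.29, -2.35, -1.05 and -1.03 in dauer exit and by -2.41, -1.37, -1.77 and -2.13 in dauers. The isoforms thus differed unequally from the pool, the intestinal one more than the canal and epidermal one.

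unc-32 lay between them. It measured -0.49, -1.04, -0.072 and -1.31 in dauer exit and -0.89, -1.89, 0.13 and -0.20 in dauers, and the stages covered much the same range. The means were -0.73 in dauer exit (SE 0.32, adjusted p = 0.237) and -0.71 in dauers (SE 0.32). Dauer minus dauer exit was 0.015 (SE 0.45, 95% interval -1.01 to 1.04).

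vha-1 and vha-4, the measured genes of the proton-carrying ring, were below the pool on every array of both stages as averages of their probes. vha-1, for a c subunit, measured -0.83, -1.55, -1.38 and -0.37 in dauer exit and -1.79, -2.18, -0.25 and -1.01 in dauers. Its exit mean of -1.03 (SE 0.31) did not pass the threshold (adjusted p = 0.0748 by limma, 95% interval -1.73 to -0.33), and was called in 5 of 18 alternative settings. vha-4, for the c'' subunit, measured -0.12, -1.13, -1.02 and -0.32 in dauer exit and -1.34, -2.45, -0.58 and -0.99 in dauers. Its means were -0.65 in dauer exit (SE 0.29, adjusted p = 0.251) and -1.34 in dauers (SE 0.29). vha-4 had the highest correlation with the mean of the other members over the 8 arrays (r = 0.95) and unc-32 the lowest (r = 0.49).

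Ordered by their means, the dauer ratios ran upward from vha-6 (-1.91) through vha-12, vha-13, vha-4, vha-1, vha-15 and vha-8 (-1.08) to unc-32 (-0.71) and vha-5 (0.0063). In dauer exit the order was vha-6 (-1.36), vha-1, unc-32, vha-4, vha-15, vha-12, vha-13, vha-8 and vha-5 (0.063). The SD of the arrays within a stage was 0.31 to 0.97 in dauer exit and 0.55 to 0.89 in dauers. All genes were read on the same arrays, so this SD does not measure the gap between neighbours. For unc-32 minus vha-5, neighbours in dauers, the values were -0.34, -1.20, -0.71 and -0.62 on the dauer arrays. Differences between neighbours were not tested.

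**Figure D2:**
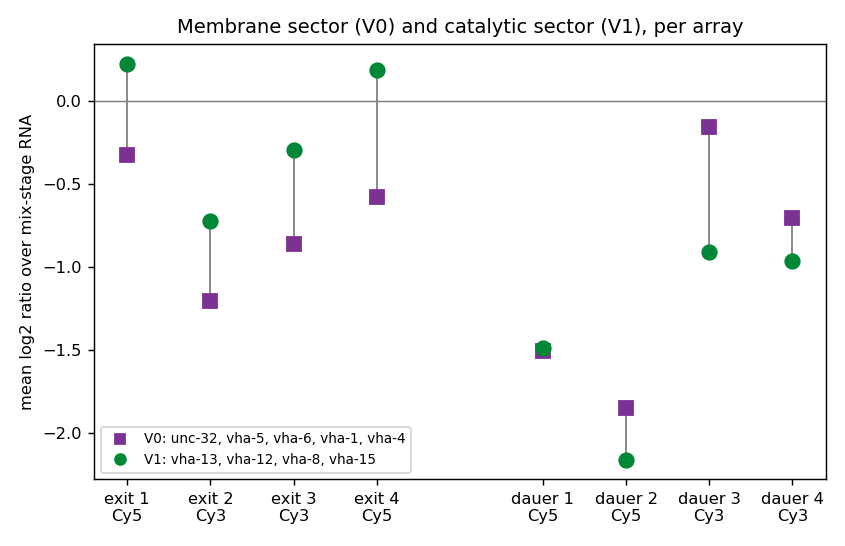
Mean log2 ratio over mix-stage RNA (y axis) of the 5 V0 members (purple squares) and the 4 V1 members (green circles) on each array, dauer exit replicates left and dauer replicates right, with the dye of the own RNA under each. V0 lies under V1 on all 4 exit arrays, and on dauer replicates 2, 3 and 4 it lies above V1.

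Among the members the sectors differed in order between the stages. The mean of the V0 members minus that of the V1 members was -0.55, -0.48, -0.57 and -0.76 on the exit arrays, a mean of -0.59 (SD 0.12, n = 4). On the dauer arrays it was -0.023, 0.31, 0.75 and 0.26, a mean of 0.32 (SD 0.32, n = 4), and 0.18 without dauer replicate 3. The arrays of the stages did not overlap. Since members chosen with the results known make up both means, this is a description and was not tested. Without vha-5 the values averaged -0.79 in dauer exit (SD 0.10) and 0.059 in dauers (SD 0.32). Over all 18 subunit genes, 9 for each sector, they shrank to -0.11 in dauer exit (SD 0.063) and 0.26 in dauers (SD 0.24). These 18 include the members. In the other subunit genes alone, the exit median was -0.39 for V0 (n = 4) and -0.64 for V1 (n = 5). For the members it was -0.73 for V0 and -0.16 for V1. The dauer medians of the other subunit genes were -0.83 for V0 and -1.28 for V1. By these medians V0 lay above V1 in both stages, so the exit order of the members did not hold outside the chosen list.

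The other subunit genes were described in the same way. Of 11 listed, 9 were measured, and no probe kept here carried vha-3 or vha-20 as its only symbol. Their ratios to mix-stage had a median of -0.47 in dauer exit and -0.89 in dauers. In dauer exit 2 of the 9 were called lower and 0 higher, beside 9.07% of all genes lower. In dauers 5 were lower and 0 higher, beside 13.6% of all genes lower. One of the exit calls was vha-18, the second H-subunit gene. It measured -2.13, -2.05, -1.05 and -1.89 in dauer exit and -1.99, -2.89, -0.68 and -1.75 in dauers, low on all 8 arrays. In dauer exit it was 3.42-fold lower than mix-stage (-1.78, SE 0.32, adjusted p = 0.00728 by limma). Its paralogue vha-15 lay on both sides of the pool at that time, and vha-18 minus vha-15 was -2.76, -0.93, 0.074 and -2.36 on the exit arrays, below 0 on 3 of 4. Each of the H-subunit genes was read by 1 probe.

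vha-9, for the F subunit of the central shaft, was the other exit call. Its values were -0.41, -0.68, -0.93 and -0.53 in dauer exit and -0.72, -1.01, -0.28 and -0.50 in dauers. The exit mean was -0.64 (SE 0.16, adjusted p = 0.0379 by limma) and the dauer mean -0.63 (SE 0.16). This call rested on every exit array, since leaving out any single one ended it (adjusted p between 0.0657 and 0.149 by limma). It was also lost without dauer replicate 1 or 4 (adjusted p = 0.0545 and 0.0608 by limma). Over 18 alternative settings the adjusted p by limma ran from 0.0107 to 0.278, and 7 kept the call. Its 2 probes differed. One averaged -1.27 in dauer exit and -1.29 in dauers, and the other 0.0012 and 0.037.

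Of the remaining V1 genes, vha-11, for the C subunit that comes off when the pump disassembles, resembled the V1 members. It averaged -0.21 in dauer exit (SE 0.25) and -1.28 in dauers (SE 0.25), and its stages did not overlap. vha-14, for the D subunit of the central shaft, averaged -0.76 in dauer exit (SE 0.30, adjusted p = 0.174) and -1.30 in dauers (SE 0.30). vha-10, for the G subunit, averaged -0.14 in dauer exit (SE 0.23) and -0.56 in dauers (SE 0.23). Thus vha-18, vha-9 and vha-14 were V1 genes with exit means below those of the 4 V1 members.

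Among the remaining V0 genes, vha-7, the a isoform not in the set, was the gene with the highest exit mean of all 18, 0.13 (SE 0.22), and averaged -0.54 in dauers (SE 0.22). vha-16, for the d subunit, averaged -0.31 in dauer exit (SE 0.30) and -0.89 in dauers (SE 0.30). vha-17, for the small e subunit, averaged -0.72 in dauer exit (SE 0.31, adjusted p = 0.215) and -0.78 in dauers (SE 0.31). vha-19, related to the accessory protein Ac45, averaged -0.47 in dauer exit (SE 0.21, adjusted p = 0.252) and -1.28 in dauers (SE 0.21). Among the 9 V0 genes vha-6 was thus the 1 call in dauer exit.

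**Figure D3:**
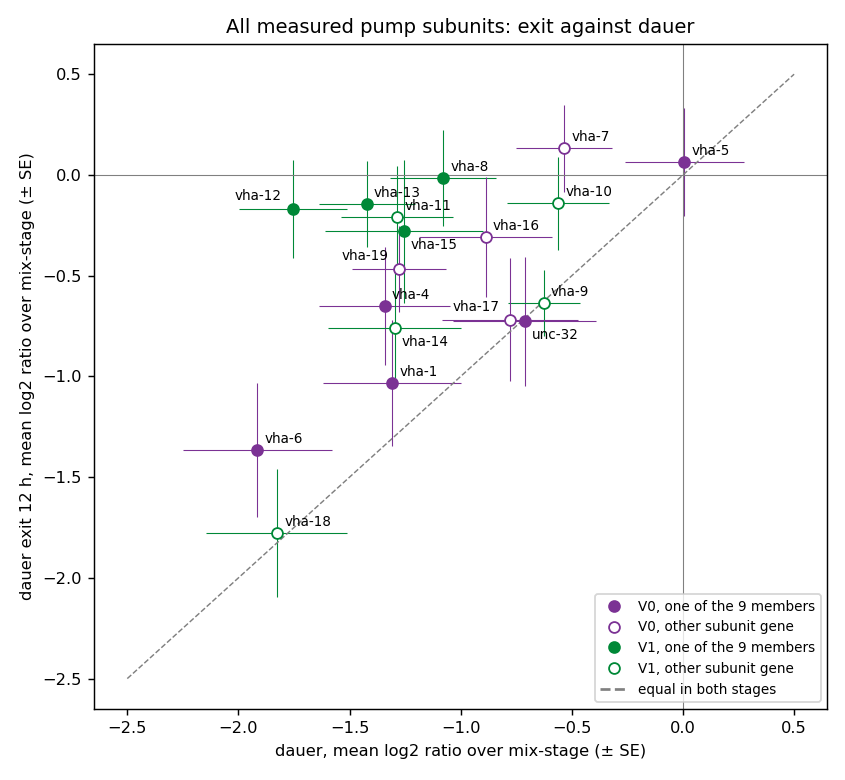
Mean log2 ratio over mix-stage in dauers (x axis) and in dauer exit (y axis) for all 18 measured subunit genes, with moderated SE as error bars. Filled points are the 9 members, open points the other subunit genes, purple V0 and green V1, and the dashed line marks equal ratios. vha-12, vha-13, vha-11 and vha-8 lie farthest above the line, and vha-18, vha-9, vha-17, unc-32 and vha-5 lie on or near it.

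For dauer minus dauer exit, the fit over all genes placed 1.88% of them past the threshold on the lower side and 2.13% on the higher. Of the members 1, vha-12, was among these, on the lower side, and nothing is read from that, because the dauer arrays chose the members. None of the other 9 subunit genes was among them (0 by limma, 2 lower at an unadjusted p under 0.05, beside 6.71% of all genes). In 3 members, vha-13, vha-12 and vha-8, all dauer arrays lay below all exit arrays, as in 4.18% of all genes. The median difference was -0.69 over the members, -0.54 over the other subunit genes and 0.034 over all genes. vha-12 no longer lay past the threshold without dauer replicate 1, 2 or 4 and without exit replicate 1, 3 or 4, with differences of -1.83 to -1.39 over all single omissions.

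The values of the stage difference were not alike in the dye orientations. On the Cy5-labelled arrays, dauer minus dauer exit was below 0 in 9 of 9 members, with a median of -1.68. Within the arrays in Cy3 it was below 0 in 3 of 9, which were vha-13 (-0.71), vha-12 (-0.87) and vha-8 (-0.40), and the median was 0.29. Over all genes 56% were below 0 within Cy5 and 38.5% within Cy3. The pattern of a negative Cy5 and a positive Cy3 difference held for 6 of 9 members and 30.7% of all genes. For vha-6 the difference was -1.66 within Cy5 and 0.56 within Cy3, for vha-1 it was -1.39 and 0.83, and for vha-15 it was -2.24 and 0.28.

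The gap between the orientations was put in numbers by a limma fit with a mean per stage and dye, added after seeing the data. It uses the dauer arrays that chose the genes, so it is a description of them. The stage difference within Cy5 minus that within Cy3 ran from -2.52 (vha-15) to -1.01 (unc-32) in the members. No gene was called for it after adjustment (0 of 15078 by limma). At an unadjusted p under 0.05 by limma there were 8 of the 9 members and 4 of the 9 other subunit genes, beside 1731 of 15078 genes. All 9 members had both dauer Cy5 arrays below both dauer Cy3 arrays, against 38.4% of all genes, and in 7 of 9 both exit Cy5 arrays were above both exit Cy3 arrays, against 28.4% of all genes. A plain effect of the dye, equal in both stages, was not called in any gene (0 of 15078 by limma, 18.5% at an unadjusted p under 0.05), and no member had an unadjusted p under 0.05. The design has 2 arrays per stage and dye, and on these arrays the dye and the cultures that happened to receive it cannot be told apart.

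**Figure D4:**
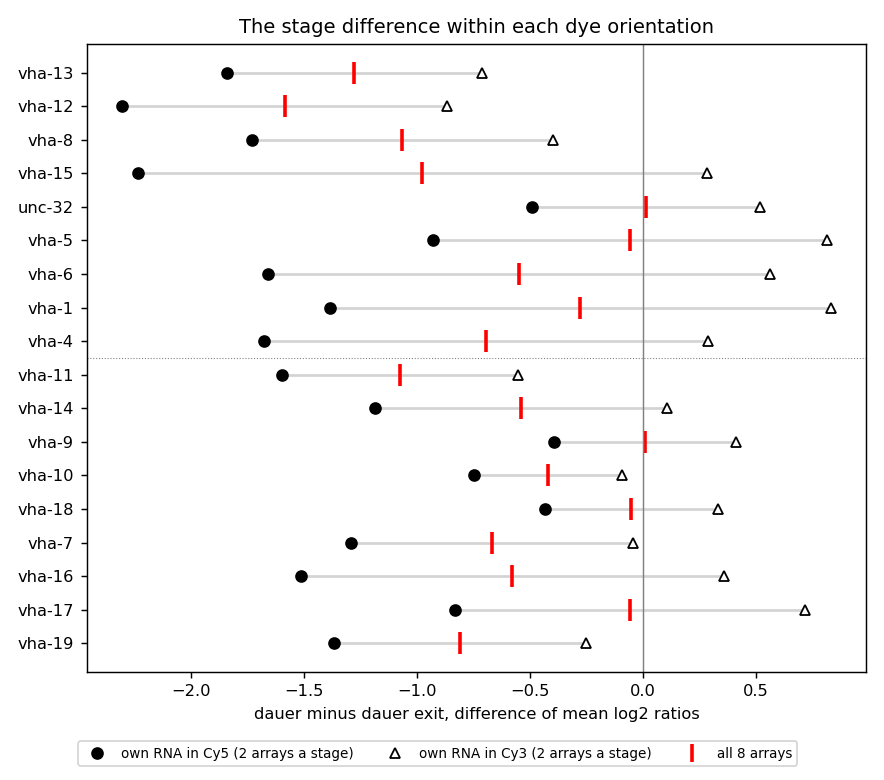
Dauer minus dauer exit difference of mean log2 ratios (x axis) for the 9 members (above the dotted line) and the 9 other subunit genes (below it), within arrays with own RNA in Cy5 (filled circles, 2 arrays a stage), within those in Cy3 (open triangles, 2 arrays a stage) and over all 8 arrays (red bars). Every filled circle lies left of 0, and vha-13, vha-12, vha-8, vha-11, vha-10, vha-7 and vha-19 have the open triangle left of 0 as well.

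Probes of a gene were averaged, and for several members they lay close together. The 6 probes of vha-1 averaged -1.17 to -0.87 in dauer exit and -1.42 to -1.16 in dauers. Of the 2 probes of vha-6, one averaged -1.40 in dauer exit and -1.68 in dauers, and the other -1.33 in dauer exit and -2.15 in dauers. The 4 probes of vha-4 averaged -0.91 to -0.33 in dauer exit and -1.44 to -1.20 in dauers, but differed on single arrays. On exit replicate 1 they ran from -1.02 to 0.58. On exit replicate 4 one read 2.09 and the others -1.31 to -0.86. Probes spread more for vha-13, whose 7 probes averaged between -0.83 and 0.53 in dauer exit and between -2.10 and -0.14 in dauers. Dauer minus dauer exit was nevertheless negative for each of those 7 (-2.06 to -0.29), for the 3 of vha-12 (-2.22 to -0.97) and for the 3 of vha-8 (-1.57 to -0.75). The 4 probes of unc-32 gave differences on both sides of 0 (-0.39 to 0.44), as did the 3 of vha-5 (-0.41 to 0.29).

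Lists of related genes are set beside the 9.07% of all genes called lower in dauer exit and the 13.6% called lower in dauers. Of 14 measured genes of the lysosome membrane and its regulators 2 were called lower in dauer exit and 0 higher, and in dauers 1 lower and 0 higher. The exit calls were ctns-1, the relative of the cystine exporter cystinosin (-1.47, SE 0.24, adjusted p = 0.00506 by limma), and lmp-2, a lysosome-associated membrane protein gene (-1.70, SE 0.37, adjusted p = 0.0199). The dauer call was glo-1, a Rab gene of gut lysosome-related granules (-0.75, SE 0.15). Of 14 genes of proton-coupled transport, sodium-proton exchange and proton signalling, pbo-4 was the 1 called, in both stages (-1.36, SE 0.31 in dauer exit and -1.28, SE 0.31 in dauers). It encodes the exchanger that releases protons from the intestine onto muscle during defecation. The list medians were -0.37 in dauer exit and -0.39 in dauers for the lysosome list and -0.062 and -0.15 for proton-coupled transport, beside -0.078 and -0.047 over all genes.

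The mitochondrial F-type ATP synthase is the related rotary enzyme that makes ATP. Of its 8 measured genes 1 was called lower in dauer exit, asg-1 for a g subunit (-1.48, SE 0.38, adjusted p = 0.0389 by limma), and 6 in dauers, with 0 higher in either. The background is again 9.07% in dauer exit and 13.6% in dauers, so 1 of 8 is near it. The list medians were -0.42 in dauer exit and -1.55 in dauers. The dauer calls of largest size were asg-2 (-1.94, SE 0.29), asg-1 (-1.79, SE 0.38), atp-2, the catalytic beta subunit gene (-1.71, SE 0.39), and asb-1 (-1.61, SE 0.37). Their ratios, like those of the pump genes, were lower on the dauer Cy5 arrays than on the dauer Cy3 arrays. In 38.4% of all genes both dauer Cy5 arrays lay below both dauer Cy3 arrays.

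**Figure D5:**
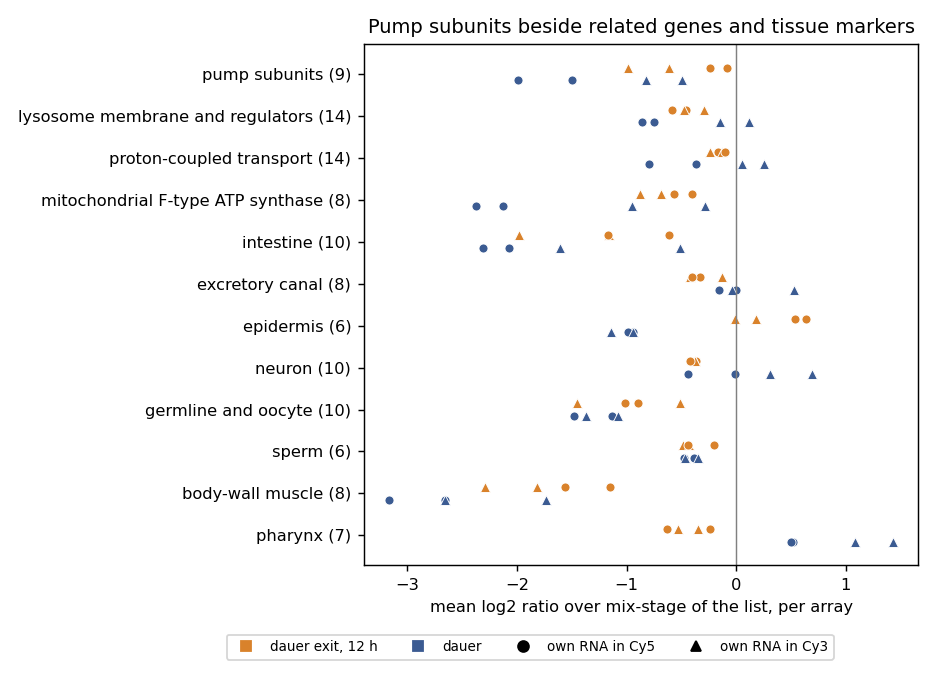
Mean log2 ratio over mix-stage of each gene list on each array (x axis), dauer exit in orange (upper row) and dauers in blue (lower row), circles for own RNA in Cy5 and triangles for Cy3, with the number of measured genes in parentheses. The pump subunits and the ATP synthase, lysosome, proton-coupled transport and intestine lists have their 2 lowest points on the dauer Cy5 arrays. The pharynx markers are higher on all dauer arrays than on all exit arrays.

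Markers of tissues were read against the same background, 9.07% lower and 0.458% higher in dauer exit and 13.6% lower and 4.92% higher in dauers, and no difference between tissues was tested. Of 10 measured intestine markers 1 was called lower in dauer exit, the cysteine protease gene cpr-1 (-3.38, SE 0.69), and 5 in dauers, with 0 higher in either. The 4 of largest size in dauers were cpr-1 (-4.48, SE 0.69), the microvillar actin gene act-5 (-3.30, SE 0.35), the sphingosine phosphate lyase gene spl-1 (-2.76, SE 0.33) and ifc-2, an intermediate filament gene (-1.48, SE 0.29). The mean of the list per array ranged from -1.99 to -0.61 in dauer exit and from -2.31 to -0.51 in dauers. The range of vha-6, the intestinal isoform, was -2.32 to -0.74 in dauer exit and -2.97 to -0.92 in dauers. The excretory canal list had 1 of 8 called lower in dauer exit, the aquaporin gene aqp-8 (-1.91, SE 0.31), and in dauers 1 lower, aqp-8 (-2.62, SE 0.31), and 2 higher, the sulphate permease genes sulp-4 (1.69, SE 0.33) and sulp-5 (1.90, SE 0.18). Its mean per array ran from -0.42 to -0.13 in dauer exit and from -0.15 to 0.52 in dauers, beside -0.40 to 0.55 and -0.68 to 0.85 for vha-5.

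Of 6 epidermis markers 0 were called by limma in dauer exit, where dpy-7 (0.50, SE 0.18) and che-14 (0.83, SE 0.33) had an unadjusted p under 0.05, and 2 were called lower in dauers, dpy-7 (-2.57, SE 0.18) and wrt-2 (-2.55, SE 0.39). Their mean per array was -0.012 to 0.64 in dauer exit and -1.14 to -0.94 in dauers. For vha-5, known from the epidermis as well as the canal, the ranges were -0.40 to 0.55 and -0.68 to 0.85. All dauer values of vha-5 thus lay above those of the epidermis list. Of 10 neuron markers 0 were called by limma in either stage. Those with an unadjusted p under 0.05 were snb-1 (-0.98, SE 0.32) and egl-21 (-0.85, SE 0.35) in dauer exit and snt-1 (0.58, SE 0.20) in dauers. The mean of the list ran from -0.42 to -0.37 in dauer exit and from -0.44 to 0.69 in dauers. Germline and oocyte markers had 3 of 10 called lower in dauer exit and 5 in dauers, led in both by the yolk receptor gene rme-2 (-4.40, SE 0.36 in dauer exit and -4.78, SE 0.36 in dauers). For body-wall muscle 7 of 8 were lower in dauer exit and 8 of 8 in dauers, among them the myosin gene myo-3 (-2.43, SE 0.41 in dauer exit and -3.69, SE 0.41 in dauers). Of 7 pharynx markers 1 was lower in each stage, phat-3, and 3 were higher in dauers, tni-4 (2.45, SE 0.41), tnc-2 (2.42, SE 0.28) and myo-2 (2.26, SE 0.19). Of 6 sperm markers 2 were lower in each stage, gsp-3 and gsp-4. The part of tissue make-up in the pump genes' ratios was not tested.

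The genes with a pattern most like the mean of the 9 members over the 8 arrays came from many processes. Among 7221 genes with a standard symbol, the highest Pearson correlations were those of the proteasome gene pbs-7 and the ATP synthase gene asb-2 (r = 0.97 each). They were followed by cif-1 (0.97), the Y-box gene cey-4 (0.96), dpy-30 (0.96), hgo-1, a tyrosine breakdown enzyme (0.96), the fatty acid desaturase gene fat-1 (0.96), sys-1, a beta-catenin (0.96), the lysosome membrane gene lmp-1 (0.95) and mec-7, a beta-tubulin of touch neurons (0.95). Their levels were not alike. mec-7 averaged -0.75 in dauer exit and -3.01 in dauers, cif-1 0.48 and -0.42, and sys-1 -0.038 and -0.34. These correlations share the arrays, the dye orientation and the mix-stage pool, and are a description.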

How the data were processed

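RNA of 4 dauer and 4 dauer exit samples was hybridised to two-colour Agilent arrays, each against the same mix-stage RNA. Scanning by the authors used GenePix, followed by background correction (normexp) and lowess normalisation of each array with separate weights for spike-in controls, in limma (version not given in the sources used here). What was deposited is the log2 ratio, Cy5 over Cy3. Of 45220 features 44123 had values on all 8 arrays, and the rest were left out. Probes annotated with more than 1 symbol were not assigned to a gene. Each ratio was turned to own over mix-stage by the labelled dye. Among the annotated probes with a single symbol, 19293 matched a gene by accession and 98 of these took a newer symbol. After the cut to probes with values 27263 named probes were left. Probes of a gene were averaged over 15078 genes, 10517 of them with 1 probe. limma 3.58.1 in R 4.3.3 was fitted to all 8 arrays with a mean per stage, and p-values were adjusted by Benjamini-Hochberg over all genes (threshold 0.05). The script was tested on simulated data. The pool is 1 control sample, so the tests leave out its own spread. The members and all lists were chosen with earlier results of these data known. Genes named were all subunits, from each list at most 4 called genes by size or those of smallest p, and the 10 most like the members' mean. The lists were lysosome, proton-coupled transport, ATP synthase, stage, intestine, excretory canal, epidermis, neuron, germline, sperm, body-wall muscle and pharynx. Protein and promoter sequences were not analysed here, and neither were scanner intensities, so no filter on dim probes was applied. The alternatives were other scaling, centring, probe summaries, a dye term, other variance settings, array weights, a replicate block, single dyes and arrays left out.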

Additional observations from a re-analysis of the deposited data

Results flagged for a closer look

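For vha-12 dauer minus dauer exit was -1.59, with every dauer array below every exit array, and it lay past the threshold in the fit over all genes. The gene was chosen for low dauer ratios, so this is a description and not a test of the stages. It was -2.31 within the Cy5 arrays and -0.87 within the Cy3 arrays. Among 36 groups of 4 arrays examined, 0 held an array far from the others.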

How the results depend on the processing

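In dauer exit 1 member was called lower. The count was 2 with arrays on a common scale, with array weights and with Cy3 arrays alone, and 0 with trend and robust variance and with Cy5 arrays alone. It was 0 to 2 with an array left out: 2 without dauer replicate 2 or 3, and 0 without dauer replicate 4 or exit replicate 2, 3 or 4. Over all genes 1367 were lower, against 2088 with array weights, 610 with Cy5, 655 with Cy3 and 678 to 1771 with an array left out. The 69 higher became 125 on a common scale, 115 with array medians at 0, 150 with weights, 11 with Cy5, 19 with Cy3, 37 for every probe on its own and 17 to 90 with an array left out. In dauers the 7 members became 0 with Cy3 alone and 5 to 7 with an array left out. The 2054 genes lower became 854 with Cy3 and 1406 to 2475 with an array left out, and the 742 higher became 235 with Cy5 and 420 to 799.

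For dauer minus exit the 1 member became 0 on a common scale, with the median of probes, with trend and robust variance, with either dye alone and for every probe on its own, 2 with medians at 0 or a dye term, and 0 to 2 with an array left out. The 283 genes lower became 0 with Cy5, 58 with Cy3 and 146 to 371 with an array left out, and the 321 higher became 0 with Cy5 and 131 to 521. V0 minus V1 ranged over arrays left out from -0.63 to -0.53 in dauer exit and from 0.18 to 0.44 in dauers. The causes were not tested.

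Exit values that changed sign were all uncalled. With Cy5 alone vha-12 was 0.084, vha-8 0.21, vha-15 0.56 and vha-10 0.19, and with Cy3 alone vha-5 was -0.18. vha-8 was 0.087 with medians at 0 and 0.10 for every probe on its own, and vha-5 was -0.072 with the median of probes and -0.0094 for every probe on its own. With an exit array left out vha-12 ranged from -0.28 to 0.047, vha-8 from -0.17 to 0.11, vha-5 from -0.10 to 0.22 and vha-10 from -0.27 to 0.025. Without exit replicate 2 vha-12 was 0.047, vha-8 0.11 and vha-10 0.025, without exit replicate 3 vha-8 was 0.0069, and without exit replicate 1 vha-5 was -0.10.

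The deviations of same-numbered arrays correlated at 0.070, -0.051, 0.23 and -0.15, and not every array correlated best with its own number. The positive values came from numbers with the own RNA in the same dye in both stages. The negative ones came from numbers with opposite dyes. Pairing and dye cannot be told apart here, so these values cannot decide whether the replicate numbers pair the samples. With the replicate number as a block 0 members were called in dauer exit (vha-6, adjusted p = 0.0545 by limma), 7 in dauers and 1 for dauer minus exit, with 1346 genes lower and 47 higher in dauer exit. The 4 arrays a stage, with 2 per dye, limit all of these values.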
